A study of Mus musculus with 12 samples.

Results

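The enzymes of haem synthesis were examined in the mouse myoblast line C2C12, in which Bach1, a transcription factor that binds haem and represses haem oxygenase 1, had been silenced. The genes were Alas1, Alas2, Alad, Uros, Urod, Cpox, Ppox and Fech, and every array probe carrying one of these symbols in the deposited table was taken. This gave 15 probes of 8 genes, out of 56605 probes on the arrays. The 8 genes do not cover every step of the pathway. C2C12 is a line of C3H mouse muscle myoblasts, which fuse into myotubes when serum is lowered at confluence. The cells had been transfected with siControl, a negative control siRNA, or with siBach1 (the siRNA siBach1-2 of the study's methods), and were collected for RNA on day 0 or on day 2 of differentiation. Differentiation was started by medium with 2% horse serum, 24 hours after transfection. Each of the 4 conditions, siControl day 0, siBach1 day 0, siControl day 2 and siBach1 day 2, was measured on 3 one-colour arrays, 12 in all. All silenced cells received the same siRNA, so effects of its sequence on other transcripts and effects of Bach1 loss cannot be told apart. The labels do not say whether the replicates came from separate cultures, and p-values therefore measure the spread between these arrays, which may be technical.

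Haem is made partly in the mitochondrion and partly in the cytosol. Synthesis begins in the mitochondrial matrix, where an aminolaevulinate synthase joins glycine and succinyl-CoA. Alas1 is the form found in most tissues and is the step that haem itself holds back, while Alas2 is the form of red cell precursors. The product leaves the mitochondrion and is built into a ring by cytosolic enzymes, of which Alad makes porphobilinogen, Uros closes the ring as uroporphyrinogen III and Urod trims its side chains to coproporphyrinogen III. Cpox and Ppox then carry out oxidation steps in the mitochondrion, and Fech, ferrochelatase, inserts iron into protoporphyrin IX. Muscle needs haem for myoglobin and for the cytochromes of the respiratory chain.

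The promoters of both forms of the first enzyme and of the other enzymes that rose together at day 0 are shown, because the first pair shows the contrast between a gene that was measured on every array and one that was not, and the others accompanied Alas1. They are RefSeq sequences of assembly GRCm38.p6, from 250 bases before to 50 bases after the start of the gene, read 5′ to 3′ on the strand of the gene. Alas1 and Uros each have 2 such promoters in the table, and the first listed is printed. For Alas1 this is the more upstream one. Capitals mark the searched letters.
Alas1 (chr9:106247905-106248204, minus strand): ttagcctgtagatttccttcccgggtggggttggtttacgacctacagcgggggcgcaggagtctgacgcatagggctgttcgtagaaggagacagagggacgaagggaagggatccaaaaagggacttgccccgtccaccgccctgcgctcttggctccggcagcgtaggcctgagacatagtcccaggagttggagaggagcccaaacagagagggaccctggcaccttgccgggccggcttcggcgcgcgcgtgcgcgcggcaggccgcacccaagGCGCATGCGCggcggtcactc
Alas2 (chrX:150547167-150547466, plus strand): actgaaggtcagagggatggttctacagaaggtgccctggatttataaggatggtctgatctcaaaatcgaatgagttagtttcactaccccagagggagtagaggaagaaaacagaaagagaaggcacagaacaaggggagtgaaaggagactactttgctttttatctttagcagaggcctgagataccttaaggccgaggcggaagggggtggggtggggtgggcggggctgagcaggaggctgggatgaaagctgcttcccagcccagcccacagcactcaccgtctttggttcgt
Uros (chr7:133709246-133709545, minus strand): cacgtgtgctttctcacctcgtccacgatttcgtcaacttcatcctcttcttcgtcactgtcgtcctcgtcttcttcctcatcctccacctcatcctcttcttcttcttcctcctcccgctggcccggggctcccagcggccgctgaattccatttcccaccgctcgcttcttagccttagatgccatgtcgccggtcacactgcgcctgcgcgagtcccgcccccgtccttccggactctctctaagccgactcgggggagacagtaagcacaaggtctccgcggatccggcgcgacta
Urod (chr4:116994364-116994663, minus strand): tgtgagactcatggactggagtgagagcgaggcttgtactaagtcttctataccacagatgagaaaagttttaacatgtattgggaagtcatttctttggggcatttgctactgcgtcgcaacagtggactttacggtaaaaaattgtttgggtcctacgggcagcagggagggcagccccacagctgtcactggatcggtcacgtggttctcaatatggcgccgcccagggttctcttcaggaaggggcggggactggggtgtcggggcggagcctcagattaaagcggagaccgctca
The letters searched on both strands were of 5 kinds. TGAGTCA is a core that AP-1 and dimers of Maf with Bach factors bind, and the letters TGCTGAG belong to the longer element of Maf proteins. TGACNNNGC is the core of the antioxidant response element, the letters CAGATAA hold a GATA site, and GCGCATGC is the core of the element bound by nuclear respiratory factor 1. The table held 10 promoters of 7 of the genes, and none for Fech. GCGCATGC was found in both Alas1 promoters, whose windows overlap and hold the same copy of it, and in no other of the 10, and 2.71% of all 32851 promoters hold it. In the printed Alas1 promoter the letters and their reverse complement overlap, and the first begins 29 bases after the start site. CAGATAA was found in the Cpox promoter (chr16:58669958-58670257), from base 255 on the reverse strand, and in 3.43% of all promoters. The first 3 of these, the Maf, Bach and antioxidant letters, were in none of the 10 windows, against 5.2%, 7.84% and 12.4% of all promoters. These matches describe the letters of the windows and nothing more. The printed Alas1 promoter held 65.3% G and C, and that of Alas2 52.3%, against a median of 52.7% over all promoters.

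On each array the scanner marked 47.6% to 58.9% of probes as well above background and no spot as saturated. Replicates 1 and 2 lay on 1 slide and replicate 3 on another, and each condition always had the same column of the slide, so that column and condition cannot be told apart. The Bach1 probe showed that silencing matched the labels, with log2 fold changes of -1.77 at day 0 and -1.97 at day 2 (standard error 0.11 for both; limma adjusted p = 1.23e-05 and 1.36e-05). Myoblast and myotube markers were above background on all 12 arrays for 7 of the 8 genes on the array. Of the erythroid markers, Gata1, Rhag and Tal1 were above background on no array, and Epor and Ermap were above it on all 12. Of 4 macrophage markers, Cd68, Csf1r and Ptprc were above background on all 12 arrays and Adgre1 on none. Each marker gene was judged by its probe that was above background on the most arrays. For Ptprc this held on probe A_55_P2716276 alone and for Cd68 on A_55_P1961943 alone. Other probes of these genes, such as A_52_P11901 of Ptprc and A_55_P2067583 of Cd68, were above background on none. Of 5 adipocyte markers, Cebpa and Pparg were above it on all 12 and Adipoq on none. Of 3 endothelial markers, Cdh5 and Kdr were above it on none.

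Transcripts of 7 of the 8 genes were well above background on all 12 arrays. Signals are given on the log2 scale relative to the 75th percentile of the array, so that 0 is a signal at that percentile, and a level of 1 probe is not set against that of another. The 12 probes of Alas1, Alad, Uros, Urod, Cpox, Ppox and Fech were tested. The single Alas2 probe, A_51_P327451, was above background on none of the arrays, with values between -7.25 and -5.95. A further Alad probe (A_52_P1035989) and a further Cpox probe (A_55_P2736874), both listed with accessions that are not RefSeq transcripts, were also above background on none. These 3 probes were left out of the tests, and no fold change is given for them. The plot of levels by array shows the 12 tested probes.

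**Figure D1:**
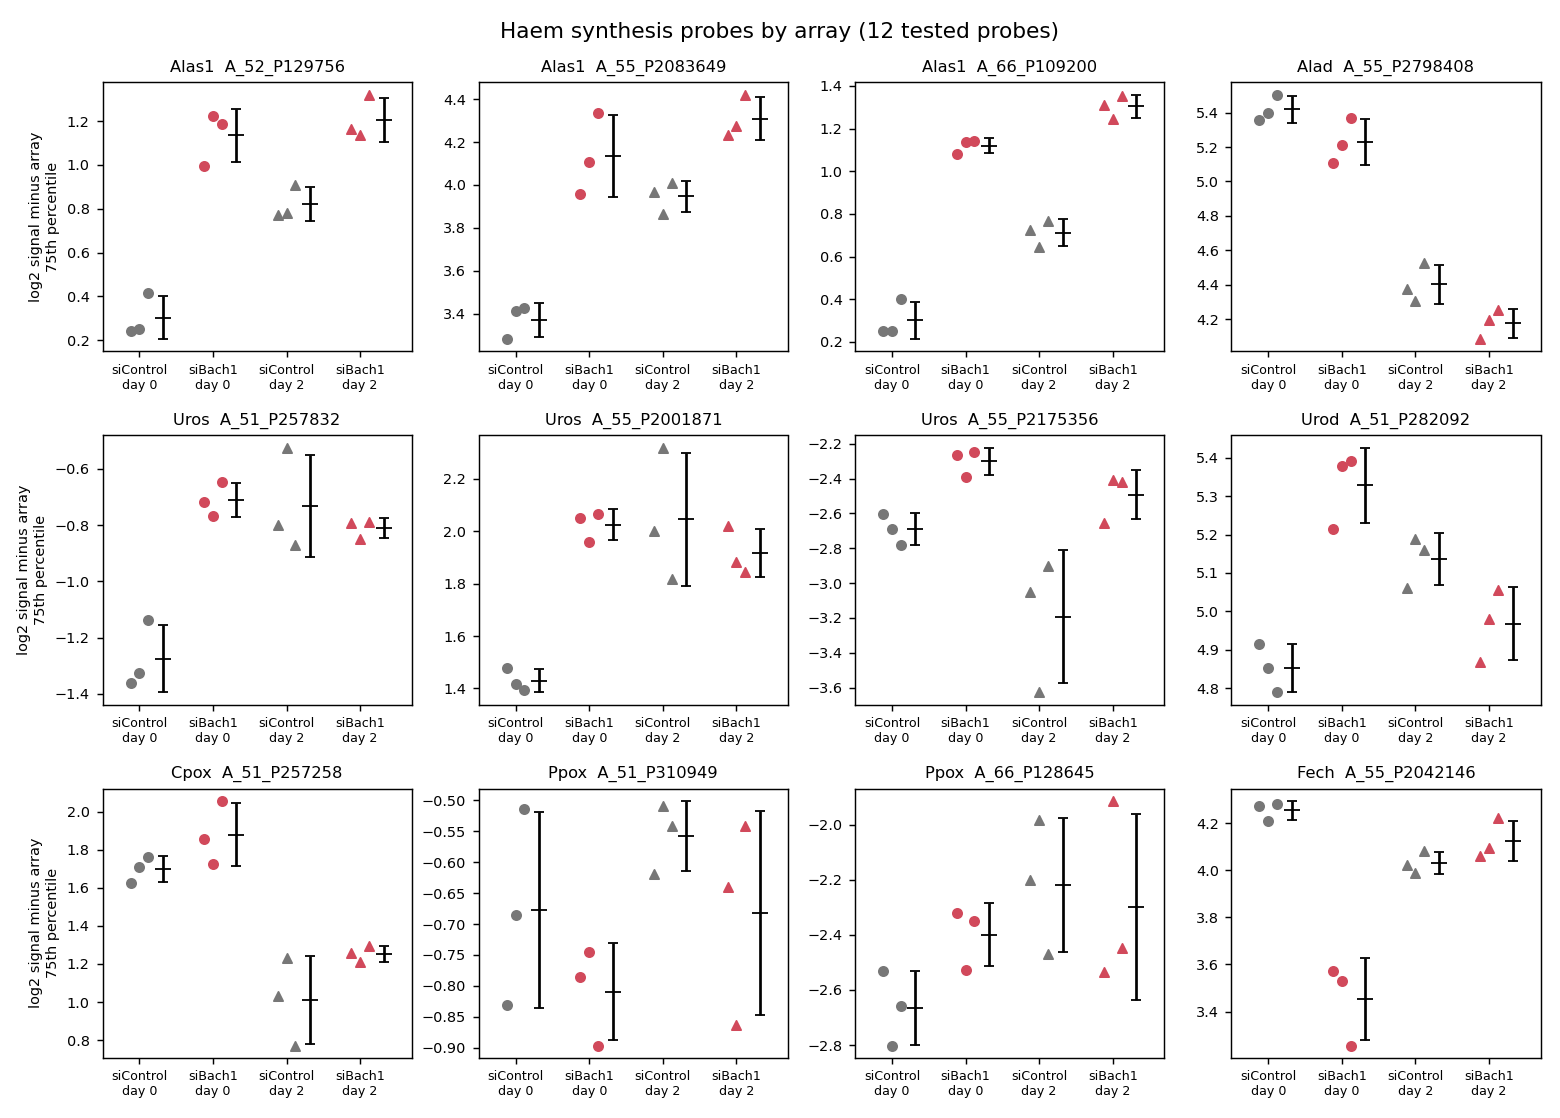
Signal of the 12 tested haem synthesis probes on each array, as log2 signal minus the 75th percentile of the array, for siControl (grey) and siBach1 (red) at day 0 (circles) and day 2 (triangles), with the mean and SD of 3 arrays beside each group. The vertical scales differ between panels. All 3 Alas1 probes are lowest in siControl day 0, the Fech probe is lowest in siBach1 day 0, and the tested Alad probe is lower at day 2 with either siRNA.

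Before differentiation, silencing of Bach1 was accompanied by higher Alas1, Uros and Urod and by lower Fech. The first enzyme rose by 1.70-fold to 1.78-fold on its 3 probes, and the last enzyme was at 0.574 of its control level. Alad, Cpox and Ppox passed the test on no probe. Of the 12 tested probes, 6 were called higher and 1 lower at an adjusted p under 0.05, by limma with Benjamini-Hochberg adjustment over the 29664 probes tested. The same rule called 8.8% of all tested probes higher and 8.32% lower. The median log2 fold change was 0.432 over the 12 probes and 0.093 over all probes. No member probe reached a fold change of 2 as well as the adjusted p, which 2.79% of all tested probes did. In these bulk samples fewer cells of a type and less RNA per cell cannot be told apart.

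Alas1, the step that sets the rate of the pathway outside red cells, gave the same picture on all 3 probes. Probe A_52_P129756 was at 0.24, 0.25 and 0.42 in the siControl day 0 arrays and at 1.00, 1.22 and 1.19 in the siBach1 day 0 arrays. The conditions did not overlap, and the log2 fold change was 0.83 (standard error 0.09, adjusted p = 0.000279 by limma). Probe A_55_P2083649 was at 3.28, 3.41 and 3.42 in siControl and at 3.96, 4.11 and 4.34 in siBach1 cells. Its lowest silenced array again lay above its highest control array, and the log2 fold change was 0.76 (standard error 0.11, adjusted p = 0.000923 by limma). Probe A_66_P109200 rose from 0.25, 0.25 and 0.40 to 1.08, 1.14 and 1.14, by 0.82 on the log2 scale (standard error 0.08, adjusted p = 8.64e-05 by limma). The 3 probes are designed on 2 RefSeq transcripts of Alas1, and their fold changes differed by less than their standard errors.

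Among the cytosolic enzymes, Uros and Urod rose and Alad did not pass the test. The Uros probe A_55_P2001871 was at 1.48, 1.42 and 1.39 in siControl day 0 and at 2.05, 1.96 and 2.07 in siBach1 day 0. The groups were apart, with SDs of 0.04 and 0.06, and the log2 fold change was 0.60 (standard error 0.12, adjusted p = 0.00665 by limma). A second Uros probe, A_51_P257832, rose by 0.56 on the log2 scale (standard error 0.10, adjusted p = 0.00431 by limma). The third, A_55_P2175356, is dim and is designed on another transcript, and it gave 0.39 with an adjusted p of 0.139. Urod was at 4.92, 4.85 and 4.79 in siControl and at 5.22, 5.38 and 5.39 in siBach1 cells. Every silenced array was above every control array, and the log2 fold change was 0.48 (standard error 0.08, adjusted p = 0.00385 by limma). Alad had values of 5.36, 5.40 and 5.50 in siControl and 5.11, 5.21 and 5.37 in siBach1 cells, which overlapped, with a log2 fold change of -0.19 (95% interval -0.40 to 0.02).

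The mitochondrial enzymes at the end of the pathway did not move together. Fech, which completes haem by inserting iron, was at 4.27, 4.21 and 4.28 in siControl day 0 and at 3.57, 3.53 and 3.26 in siBach1 day 0. All silenced arrays lay below all control arrays, and the log2 fold change was -0.80 (standard error 0.09, adjusted p = 0.000359 by limma). Within slide 1 the difference was -0.69, and within slide 2, which holds 1 array per condition, it was -1.02. Cpox was at 1.62, 1.71 and 1.76 in siControl and at 1.85, 1.73 and 2.06 in siBach1 cells, a log2 difference of 0.18 with a 95% interval of -0.09 to 0.45. The Ppox probes gave -0.13 (95% interval -0.37 to 0.11) and 0.27 (95% interval -0.12 to 0.65), and neither passed the test. Among the macrophage markers, Cd68 was lower in siBach1 day 0 on both tested probes, by 0.95 and 0.48 on the log2 scale (limma adjusted p = 0.00219 and 0.0176), and the other 2 marker genes tested did not pass. Signal summed over the 4 macrophage markers before scaling was 3150 to 4790 in siControl day 0 and 2870 to 4560 in siBach1 day 0. Those arrays had 75th percentiles of 402.0 to 534.4 in siControl day 0 and 325.5 to 461.2 in siBach1 day 0. Their unscaled sums therefore cannot be compared directly. The part of the macrophage marker differences in the haem synthesis values was not tested. In all, 9 of the 12 member probes had no overlap between the arrays of the 2 conditions, against 37.3% of all tested probes.

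**Figure D2:**
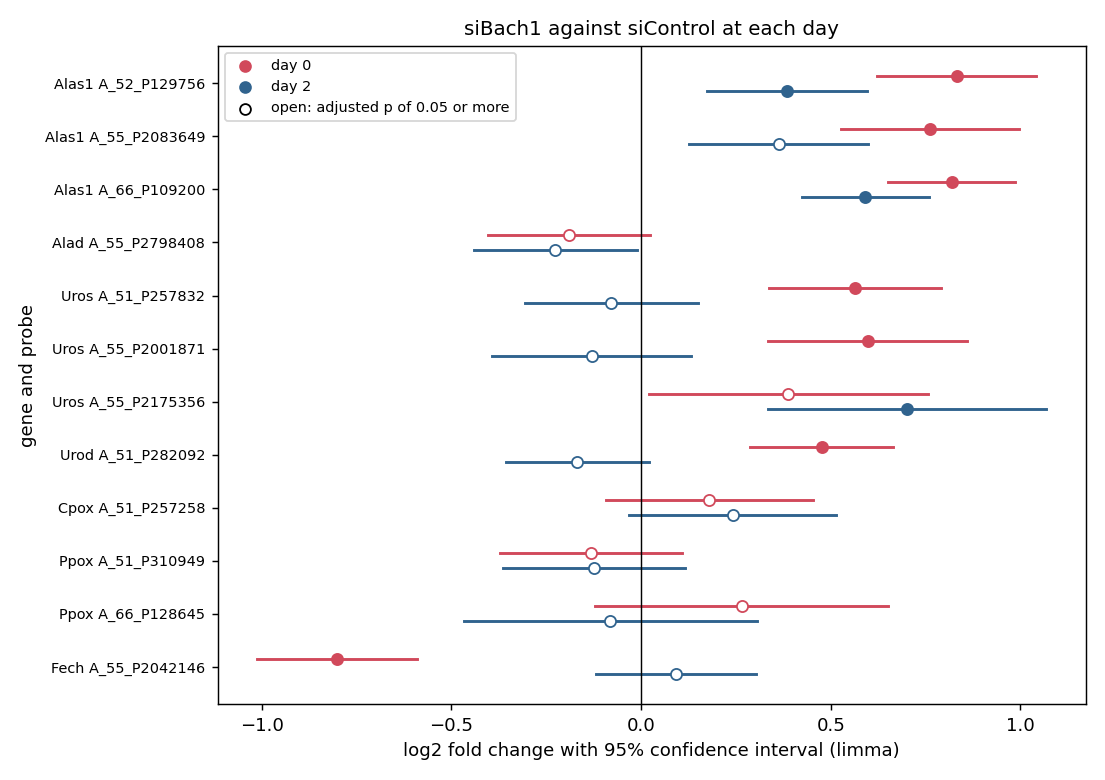
Log2 fold change of siBach1 against siControl with its 95% confidence interval from limma for the 12 tested probes, at day 0 (red) and day 2 (blue). Filled points passed an adjusted p of 0.05. At day 0 the Alas1 probes lie between 0.76 and 0.83 and Fech at -0.80, and at day 2 the Fech, Urod and brighter Uros probes have intervals that include 0.

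At day 2, Alas1 was again above its control level on 2 of its 3 probes by the test, and Fech and Urod did not pass. Of the 12 probes, 3 were called higher, 2 of Alas1 and 1 of Uros, and none was called lower, although 5 member probes had an unadjusted p under 0.05 in limma. Over all tested probes 5.75% were called higher and 6.26% lower. The median log2 fold change of the 12 probes was 0.008, against -0.013 for all probes. None of the 12 was also changed 2-fold, as 2.17% of all tested probes were. With the replicate number as a block, 5 member probes were called in place of 3.

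Alas1 probe A_66_P109200 was at 0.72, 0.64 and 0.77 in siControl day 2 and at 1.31, 1.25 and 1.35 in siBach1 day 2. The groups did not overlap, and the log2 fold change was 0.59 (standard error 0.08, adjusted p = 0.00133 by limma). Probe A_52_P129756 was at 0.77, 0.78 and 0.91 against 1.17, 1.13 and 1.32, and the log2 fold change was 0.39 (standard error 0.09, adjusted p = 0.0265 by limma). With no filter on dim probes its adjusted p was 0.13, and with the methods' t-test after Benjamini-Hochberg adjustment it was 0.0772. The call was also lost when any of 4 arrays was left out, namely replicates 1 and 2 of siControl day 2 (adjusted p = 0.0849 and 0.0656) and replicates 1 and 3 of siBach1 day 2 (0.0662 and 0.0847). Probe A_55_P2083649 gave 0.36 (95% interval 0.13 to 0.60) and missed the threshold with an adjusted p of 0.0516, which was 0.0146 with the replicate block, 0.00699 after quantile normalization and 0.02 after normexp. All 3 Alas1 probes had every silenced array above every control array.

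The bright Uros probes overlapped between the siRNAs at day 2, with log2 fold changes of -0.08 (95% interval -0.31 to 0.15) and -0.13 (95% interval -0.39 to 0.13). The dim probe A_55_P2175356 was at -3.05, -3.63 and -2.90 in siControl and at -2.65, -2.41 and -2.42 in siBach1 cells. It was called higher by 0.70 on the log2 scale (standard error 0.17, adjusted p = 0.0226 by limma), whereas the other Uros probes were not called. The call was lost without siBach1 day 2 replicate 2 (adjusted p = 0.07) or replicate 3 (0.0675), and after a normexp background correction the value was 0.25 (adjusted p = 0.126). With no filter the adjusted p was 0.0837. Urod was at 5.06, 5.19 and 5.16 in siControl and at 4.87, 4.98 and 5.06 in siBach1 cells, a log2 fold change of -0.17 (95% interval -0.36 to 0.02). Alad was at 4.38, 4.30 and 4.53 against 4.08, 4.19 and 4.25, without overlap, and its log2 fold change of -0.23 (95% interval -0.44 to -0.01) had an adjusted p of 0.162, or 0.037 with the replicate block.

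Fech was at 4.02, 3.99 and 4.08 in siControl day 2 and at 4.06, 4.09 and 4.22 in siBach1 day 2. The arrays overlapped, and the log2 fold change was 0.09 (95% interval -0.12 to 0.30). Cpox gave 0.24 (95% interval -0.03 to 0.51), with siControl values of 1.03, 1.23 and 0.77 and siBach1 values of 1.26, 1.21 and 1.29. The Ppox probes gave -0.12 and -0.08, and their arrays overlapped. The conditions did not overlap for 6 of the 12 probes, against 32.8% of all tested probes. Among the muscle markers, Myog, which drives the onset of differentiation, was lower in siBach1 day 2 by 0.98 on the log2 scale (limma adjusted p = 0.0165), and Myod1 by 0.48 (limma adjusted p = 0.0365), 2 of the 7 marker genes tested. Signal summed over the 8 muscle markers before scaling was 528000 to 647000 in siControl day 2 and 421000 to 542000 in siBach1 day 2. Those arrays had 75th percentiles of 345.0 to 387.2 in siControl day 2 and 406.7 to 431.2 in siBach1 day 2. Their unscaled sums therefore cannot be compared directly. The part of the muscle marker differences in the haem synthesis values was not tested.

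In siControl cells, differentiation was accompanied by higher Alas1 and Urod and by lower Alad and Cpox. Uros rose on its bright probes and fell on its dim one. Of the 12 probes, 6 were called higher and 3 lower, where 24.6% of all tested probes were higher and 28.7% lower. Alad was the only member probe that also changed 2-fold, as 20% of all tested probes did. Its log2 fold change from day 0 to day 2 was -1.02, with a standard error of 0.10 and an adjusted p of 9.56e-06 in limma, which is a fold of 0.494. Cpox changed by -0.69 (standard error 0.12, adjusted p = 0.000758 by limma). The Alas1 probes rose by 0.41 to 0.58 on the log2 scale, with adjusted p-values of 0.000883 to 0.000943 in limma. Alas1, the first enzyme, was thus higher and Alad, the second, lower at day 2 in control cells.

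The bright Uros probes rose by 0.54 and 0.62 (standard errors 0.10 and 0.12) with differentiation of siControl cells. The highest array of siControl day 2 for both was replicate 2, at -0.52 and 2.32. The dim probe A_55_P2175356 fell by 0.50 (adjusted p = 0.0249 by limma), a call that was lost without siControl day 0 replicate 1 or 2 or siControl day 2 replicate 2 (adjusted p = 0.076, 0.059 and 0.0532), and also with no filter (0.0714), and the value was -0.11 after a normexp background correction. Urod rose by 0.28 (standard error 0.08, adjusted p = 0.0158 by limma), and the call was lost without siControl day 0 replicate 3 (adjusted p = 0.055) and with no filter (0.0799). Fech changed by -0.22 (95% interval -0.43 to -0.01) with an adjusted p of 0.0705. The Ppox probes changed by 0.12 and 0.45 with adjusted p-values of 0.38 and 0.0511. Members without overlap between the days numbered 11 of 12, against 61.9% of all tested probes.

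In siBach1 cells, Alad and Cpox fell from day 0 to day 2 as well, while Fech rose and Urod fell. The Alad log2 fold change was -1.05 (standard error 0.10, adjusted p = 7.1e-06 by limma), and that of Cpox was -0.63 (standard error 0.12, adjusted p = 0.00132 by limma). Fech rose by 0.67 (standard error 0.09, adjusted p = 0.000147 by limma), from silenced day 0 arrays at 3.26 to 3.57 to silenced day 2 arrays at 4.06 to 4.22. Urod fell by 0.36 (standard error 0.08, adjusted p = 0.00409 by limma), but by 0.05 with an adjusted p of 0.624 after quantile normalization. Alas1, already higher at day 0, changed by 0.07, 0.18 and 0.18 and passed on no probe, although A_66_P109200 had an adjusted p of 0.0594, or 0.0244 with the replicate block. After quantile normalization 2 Alas1 probes were called higher, A_55_P2083649 by 0.44 (adjusted p = 0.00135 by limma) and A_66_P109200 by 0.28 (adjusted p = 0.00654 by limma). The bright Uros probes changed by -0.10 and -0.11 and did not pass. Of the 12 probes, 1 was called higher and 3 lower, where 23.8% of all tested probes were higher and 32.3% lower, and Alad was again the 1 that also changed 2-fold, against 20.5% of all tested probes. The days did not overlap for 7 of 12 probes, against 61.3% of all tested probes. This comparison shares its day 0 and day 2 arrays with the comparisons of the siRNAs.

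**Figure D3:**
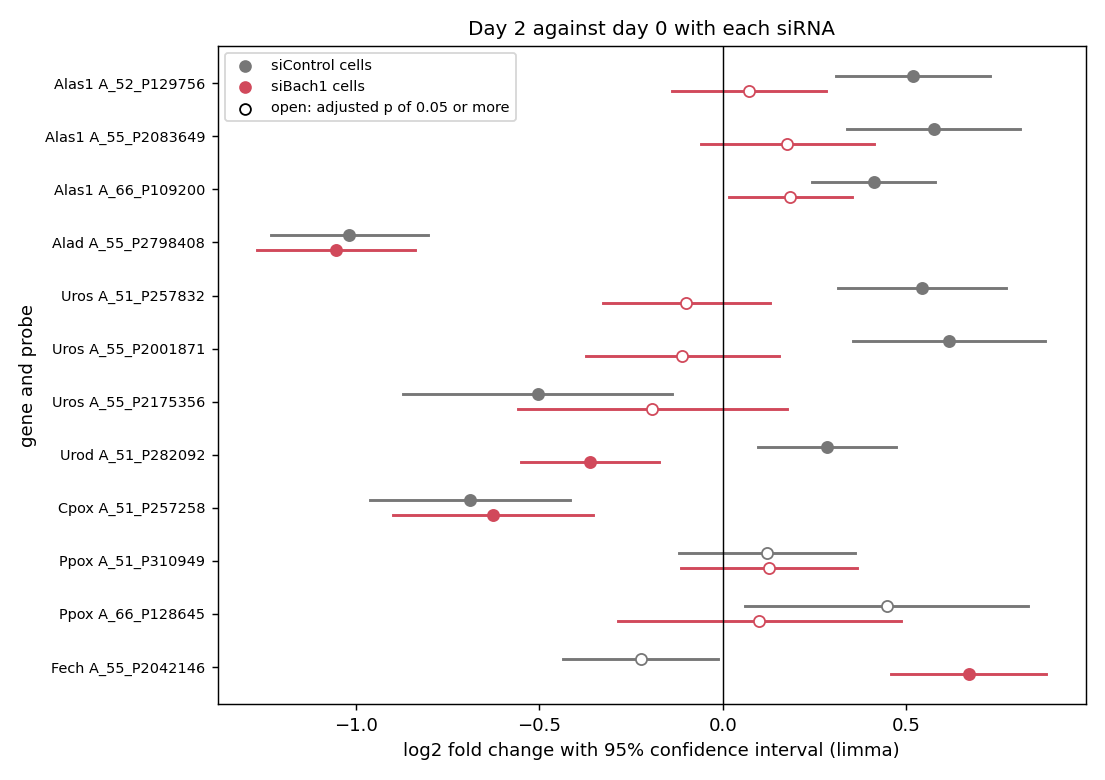
Log2 fold change of day 2 against day 0 with its 95% confidence interval from limma for the 12 tested probes, in siControl cells (grey) and siBach1 cells (red). Filled points passed an adjusted p of 0.05. Alad and Cpox fell with either siRNA, between -1.05 and -0.63, whereas the Alas1 and bright Uros probes passed in siControl cells and Fech in siBach1 cells.

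The effect of silencing differed between the days for Fech, for Urod and for 2 of the 3 Uros probes. Fech was more positive at day 2 than at day 0 by 0.89 on the log2 scale (95% interval 0.60 to 1.19, adjusted p = 0.0103 by limma), and it was called whichever array was left out, but not when probes were tested with no filter (adjusted p = 0.0755). For Urod the difference was -0.64 (95% interval -0.91 to -0.38, adjusted p = 0.0187 by limma), and it was lost without siBach1 day 2 replicate 1 (adjusted p = 0.0541) and with no filter (0.125). For the bright Uros probes it was -0.64 (adjusted p = 0.0366 by limma) and -0.73 (adjusted p = 0.0385 by limma). The first of these was kept in 3 of the 12 fits that left out an array, those without siControl day 2 replicate 2 or 3 or siControl day 0 replicate 3, and the second in 2, those without siControl day 2 replicate 2 or 3. The highest adjusted p in these fits was 0.09 for the first and 0.0875 for the second, and with no filter it was 0.187 and 0.182. The second, A_55_P2001871, was also lost after quantile normalization (adjusted p = 0.0666) and normexp (0.0624). With the mean of the 3 Uros probes the difference was -0.35, with an adjusted p of 0.0589. The dim Uros probe A_55_P2175356 went the other way, by 0.31 (adjusted p = 0.496 by limma), and was not called.

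The Alas1 probes gave differences of -0.45, -0.40 and -0.23, with adjusted p-values of 0.0872, 0.156 and 0.249. With the replicate block the first had an adjusted p of 0.025 and the second 0.0488, and with slide as a block 0.02 and 0.0412. No difference was called for Alad, Cpox or Ppox. Of the macrophage markers, Cd68 differed by 1.29 on 1 of its 2 tested probes (adjusted p = 0.0135 by limma). In all, 1 of the 12 probes was called more positive and 3 more negative at day 2, where the test called 2.39% and 2.2% of all tested probes, and 1.44% with a 2-fold difference as well. The median difference was -0.287 over the members and -0.073 over all probes.

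Genes that supply the pathway, use its product or control it were counted by list. Genes were counted as called where a probe was called in that direction and none in the other, and by that rule 12.3% of all 15642 tested genes were higher and 11.4% lower at day 0, and 8.55% and 8.98% at day 2. Of 12 genes for mitochondrial transport and precursor supply, 3 were called higher (Abcb6, Abcb8 and Suclg1) and 3 lower (Tmem14c, Slc25a28 and Slc25a37) at day 0. At day 2, 2 were higher (Abcb6 and Sucla2) and 2 lower (Tmem14c and Shmt2). The calls of Abcb8, Suclg1 and Shmt2 each rested on 1 of 2 probes, and the other gave 0.29, 0.87 and -0.55. Tmem14c, an inner membrane protein needed to bring the protoporphyrin precursor into the mitochondrial matrix, was the only one with a 2-fold change. It was at 6.27, 6.26 and 6.26 in siControl day 0 and at 5.31, 5.10 and 5.12 in siBach1 day 0, well outside the spread of either group. Its log2 fold change was -1.09 (standard error 0.07, adjusted p = 1.55e-05 by limma) at day 0 and -0.89 (adjusted p = 0.000125 by limma) at day 2. Abcb6, a transporter of porphyrins, rose by 0.68 and 0.79 at the 2 days (limma adjusted p = 0.0162 and 0.0121). Of the 4 probes of Slc25a37, which carries iron into the mitochondrion, A_52_P622941 changed by -0.95 at day 0 (adjusted p = 0.0152 by limma), and the other 3 gave -0.07 to -0.13 and did not pass. In the lists, Tmem14c, Ppargc1a, Hmox1 and Slc48a1 were named because they were called with a 2-fold change, and the others after their values were seen.

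Of 10 genes that control the aminolaevulinate synthases or their transcription, 9 were tested, with 1 higher (Ppargc1b) and 1 lower (Clpp) at day 0 and 2 higher (Ppargc1a and Ppargc1b) and 2 lower (Clpp and Nrf1) at day 2. Nrf1 was called on 1 of 3 probes, by -0.27 (adjusted p = 0.044 by limma), and the others gave 0.03 and 0.14. At day 2 Ppargc1b was called on 1 of 2 probes, by 0.42, and the other gave 0.17. Ppargc1a, a coactivator of mitochondrial genes, was at -1.41, -1.27 and -1.51 in siControl day 2 and at -0.45, 0.08 and -0.44 in siBach1 day 2 on probe A_51_P279038. The groups were apart, and the log2 fold change was 1.13 (standard error 0.17, adjusted p = 0.00326 by limma), with an adjusted p of 0.0653 in the methods' t-test after Benjamini-Hochberg adjustment. The dimmer probe A_55_P2745394 gave 1.23 (adjusted p = 0.0363 by limma), which lost its call when any of the 6 arrays of day 2, or replicate 1 or 2 of siControl day 0, was left out (adjusted p up to 0.112), and with no filter (0.11). At day 0 the first probe was at -2.56, -2.53 and -3.07 in siControl and -2.49, -2.38 and -2.37 in siBach1 cells. Clpp, a subunit of the mitochondrial ClpXP protease, was lower by 0.47 and 0.54 on the log2 scale at the 2 days (limma adjusted p = 0.00409 and 0.00343).

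Of 9 genes for iron-sulfur clusters and mitochondrial iron, 4 were higher (Isca2, Iscu, Lyrm4 and Nfs1) and 1 lower (Isca1) at day 0, and Nfs1 was the 1 called higher at day 2. Nfs1, the cysteine desulfurase that supplies sulfur to the clusters, was higher at both days, by 0.50 and 0.45 on probe A_52_P252121, and by 0.41 on A_51_P315646 at day 0, where 0.21 at day 2 did not pass. Isca1 was called on 1 of 3 probes, by -0.37, and the others gave 0.01 and 0.25. Iscu was called on 1 of 2 probes, by 0.34, and the other gave 0.02. Of 3 genes for haem a and for haem attachment to cytochromes, Cox10 was higher at both days on probe A_52_P579517, by 0.43 and 0.34, and no other gene passed. The other Cox10 probe, A_66_P135898, gave 0.18 and -0.03 and passed at neither day. Of 6 genes for haem traffic and breakdown on the array, 2 were higher at both days. Hmox1, the haem oxygenase that Bach1 represses, rose by 3.30 at day 0 and 3.12 at day 2 (standard error 0.14, adjusted p = 1.42e-06 and 2.77e-06 by limma). Slc48a1, a haem transporter, was at 1.20, 1.31 and 1.06 in siControl day 2 and at 2.25, 2.12 and 2.44 in siBach1 day 2, a log2 fold change of 1.08 (adjusted p = 0.00151 by limma) on probe A_52_P528505, and its other probe gave 0.75 (adjusted p = 0.00747 by limma). All 6 genes fell from day 0 to day 2 with either siRNA, as 32.2% of all tested genes did in siControl and 34.9% in siBach1 cells. The median log2 fold changes over the probes of the lists lay between 0.088 and 0.172 at day 0 and between -0.095 and 0.214 at day 2, beside 0.432 and 0.008 for the haem synthesis probes.

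**Figure D4:**
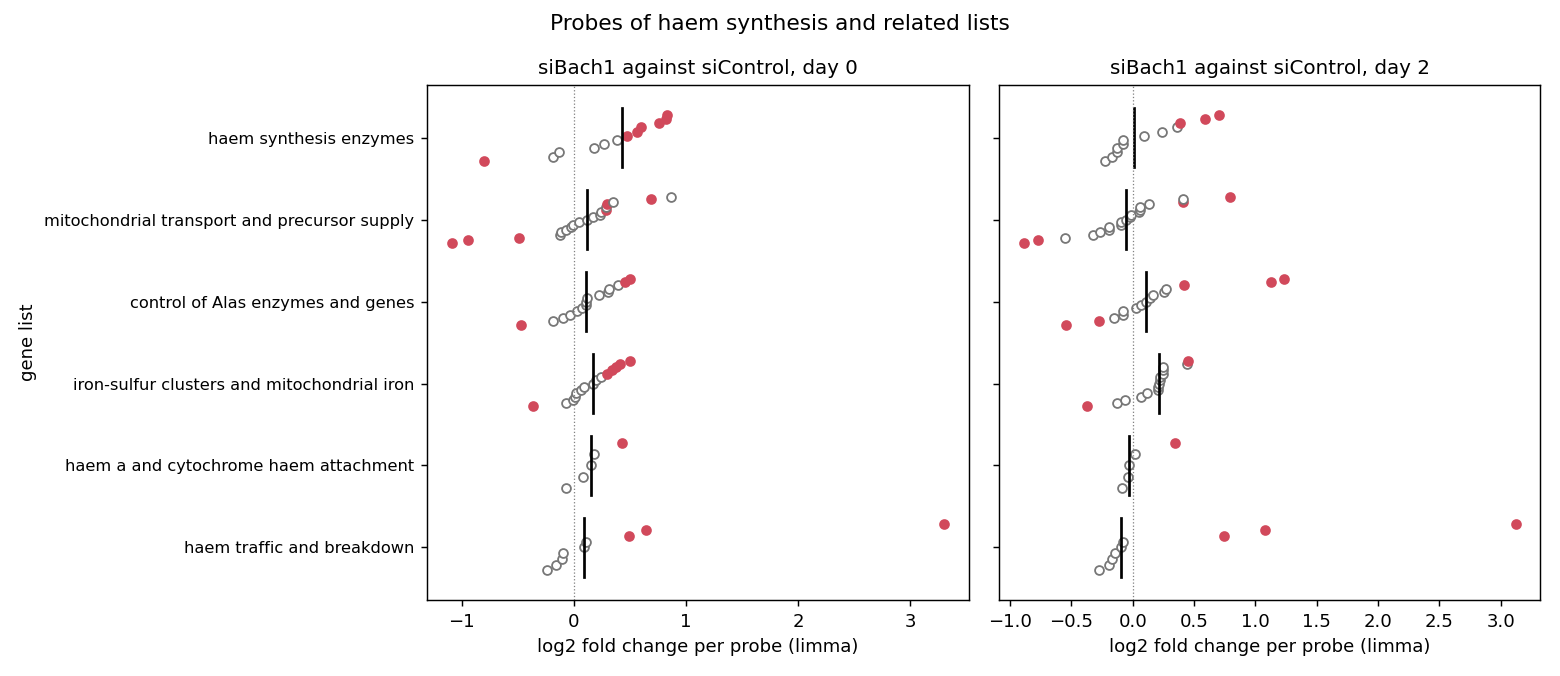
Log2 fold change of siBach1 against siControl at day 0 (left) and day 2 (right) for each tested probe of the haem synthesis enzymes and of 5 related lists. Filled red points passed an adjusted p of 0.05 in limma and black bars are list medians. Hmox1 stands apart at 3.30 and 3.12, and Fech at -0.80 is the only haem synthesis probe called lower.

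Alad had the widest range of condition means among the member probes, 1.24 on the log2 scale, and its pattern was compared with that of 21622 other probes. Its means were 5.42 in siControl day 0, 5.23 in siBach1 day 0, 4.40 in siControl day 2 and 4.18 in siBach1 day 2, and the last pair differed by 0.23, which did not pass the test. Over the 12 arrays, which share slides and scaling, the genes most like it by Pearson correlation were Pold2 (0.998), Gabpb1 (0.997), Sac3d1 (0.996), Phf5a (0.996) and Tyms (0.996). Pold2 is a subunit of DNA polymerase delta and Tyms is thymidylate synthase, and a function shared by the listed genes was not tested. These correlations are a description of patterns over the same arrays.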

How the data were processed

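RNA of 12 C2C12 samples was hybridized to Agilent mouse arrays with 1 dye. The authors deposited, per array, scanner output with background-subtracted processed signal intensities, and a table of log2 values that the authors had scaled to the 75th percentile and centred on each probe's median. This description of the deposited log2 values came from comparing them with the scanner files, with a largest difference of 0.00034. The submitters' processing notes name Agilent Feature Extraction 9.1, whereas the headers of the deposited scanner files give version 10.7.3.1.

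Control spots and 76 to 110 outlier spots per array were removed, the deposited intensities were taken to log2, repeated spots were averaged and the 75th percentile of the array was subtracted. A probe had to be well above background on every one of the 3 arrays of some condition, and the 29664 of 56605 that passed entered a single limma 3.58.1 fit (R 4.3.3) of the 4 conditions, with Benjamini-Hochberg adjustment over all of them, and were called at an adjusted p under 0.05. The 5 comparisons were siBach1 against siControl at each day, day 2 against day 0 with each siRNA, and how far the silencing effect at day 2 differed from that at day 0. The fit was tested on simulated data with errors independent between arrays. That test therefore does not cover the correlation between arrays given next. Residuals of arrays with the same replicate number were correlated in all 18 pairs, at 0.142 to 0.595, so the numbers pair the arrays, which also share a slide. The main fit did not include this pairing, and member calls that changed with the replicate block are given with it. The 12 arrays limit the precision of every value.

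The genes, lists and named genes were chosen with earlier results of these data known. All probes of the 8 genes are named, and of the lists, genes called with at least a 2-fold change in a silencing comparison. Some results of the lists are not reported here. Accessions of 13 of the 15 probes matched RefSeq with the same symbol. Alternatives were quantile normalization, normexp (offset 50, on median signals), the authors' values, no filter, replicate or slide as a block, the methods' t-test, the mean of the probes of a gene, a fold change of at least 2 and each array left out. Python 3.11, pandas 2.3.3 and numpy 2.4.6 read the files.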

Additional observations from a re-analysis of the deposited data

Results flagged for a closer look

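The effect of silencing differed between day 2 and day 0, by limma's test of the difference itself, for 4 of the 12 tested haem synthesis probes. Fech on A_55_P2042146 differed by 0.89 on the log2 scale (adjusted p = 0.0103), from -0.80 at day 0 to 0.09 at day 2. Urod on A_51_P282092 differed by -0.64 (adjusted p = 0.0187), from 0.48 to -0.17. Uros differed by -0.64 on A_51_P257832 (adjusted p = 0.0366) and by -0.73 on A_55_P2001871 (adjusted p = 0.0385). All 4 had the same sign within slide 1 and within slide 2, where Fech gave 0.76 and 1.16 and Urod -0.61 and -0.71. The slides hold the same arrays that gave the calls, and slide 2 has 1 array per condition. The shared sign is therefore not a separate test. Groups of 3 arrays were not examined for single arrays that stand apart.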

How the results depend on the processing

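The number of member probes called in silencing at day 0 was 7, and 7 to 8 under the other fits and with any array left out. At day 2 it was 3, against 1 with no filter or with the methods' t-test after Benjamini-Hochberg adjustment, 5 with replicate block or slide as a block, and 1 to 4 with an array left out (1 without siBach1 day 2 replicate 3). For the difference between days it was 4, against 0 with no filter, where 6 probes had an unadjusted p under 0.05 in limma and 56605 probes were tested, and 1 to 4 with an array left out (1 without siBach1 day 2 replicate 1, and 2 without any of 8 others). With the replicate block or slide as a block, these 4 differences were kept, and those of Alas1 A_52_P129756 and A_55_P2083649 were called as well. Between days the number called was 9 in siControl and 4 in siBach1 cells, with 7 to 10 and 4 to 5 otherwise. With a 2-fold change required as well, 0, 0 and 0 were called in these comparisons and 1 and 1 between days, where limma gave 8, 5, 6, 11 and 5 probes with an unadjusted p under 0.05. Of 1303 values of 64 single results, 11 changed sign, none of them past the threshold except the dim Uros probe between days in siControl cells, which the mean of the Uros probes turned to 0.22. That mean gave 0.16 for the bright Uros probes at day 2, and the mean of the Ppox probes gave 0.0668 at day 0. Quantile normalization gave -0.07 for Ppox A_66_P128645 and 0.0306 for Uros A_55_P2001871 between days in siBach1 cells. With an array left out, A_66_P128645 ranged from -0.27 to 0.0375 at day 2 and from -0.092 to 0.22 between days in siBach1 cells, and the bright Uros probes at day 2 from -0.15 to 0.0249 and from -0.24 to 0.007. The cause was not tested. With slide as a block, Alad at day 0 had an adjusted p of 0.0489 and Ppox A_66_P128645 between days in siControl cells 0.0426. The median of all probes in the difference between days was -0.073, and -0.13 after normexp. The replicate block changed no call of a single member probe other than those given with it above. All 27 called results had the same sign on both slides, which hold the arrays that gave the calls, so this is not a separate test. Values of probes above background on no array are limited by background.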
